A study of Mus musculus with 9 samples.

Results

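Malat1, Neat1 and 7 small nucleolar RNA (snoRNA) host genes, Gas5, Snhg1, Snhg5, Snhg6, Snhg8, Snhg12 and Snhg15, were followed in RAW 264.7 cells exposed to lipid emulsion particles. These 9 genes were chosen by symbol from the 54432 genes of the gene-level count table, and all 9 were counted in every library. RAW 264.7 is a mouse macrophage-like cell line, here grown with 10% fetal bovine serum and used at passages 13 to 15. Each condition had 3 libraries of total RNA: untreated cells (CTRL), cells given 1 mM VLDL-sized particles (VLDLsep) and cells given 1 mM chylomicron-sized particles (CHYLsep), all taken at 6 hours. The particles are emulsions of sunflower oil and sodium caseinate, a milk protein, and model lipoproteins by their size. No group was given caseinate alone, so effects of the oil and of the protein cannot be told apart. The study's methods describe both biological and technical triplicates, with samples of a condition from 1 experiment pooled before sequencing. The labels do not say which cultures a library came from, so every p-value below measures only the spread between these libraries.

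Malat1 and Neat1 are long noncoding RNAs (lncRNAs) that stay in the nucleus. Malat1 collects in nuclear speckles, the bodies that hold splicing factors, and Neat1 is the scaffold on which paraspeckles are built. A snoRNA host gene carries snoRNAs inside its introns, which are released after splicing and guide methylation or pseudouridylation of ribosomal RNA and other targets. The spliced host RNA that remains is exported, is often engaged by ribosomes and is then removed by nonsense-mediated decay (NMD), so that its level is known to rise when translation is blocked. Many host genes start with a run of pyrimidines, the 5′ terminal oligopyrimidine feature of genes for the translation machinery.

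Malat1 and the long isoform of Neat1 are known to end without a conventional poly(A) tail, because RNase P cuts their 3′ ends and a triple helix of U-rich and A-rich stretches protects them. The short isoform of Neat1 is polyadenylated in the usual way. These 110-base regions from the annotated transcripts are shown because they bear on which molecules a library can hold, with runs of at least 4 T or 4 A in capitals. The Malat1 stretch covers bases 6582 to 6691 of the 6983-base transcript, and the Neat1 stretch covers the last bases, 20662 to 20771, of the long isoform.
Malat1: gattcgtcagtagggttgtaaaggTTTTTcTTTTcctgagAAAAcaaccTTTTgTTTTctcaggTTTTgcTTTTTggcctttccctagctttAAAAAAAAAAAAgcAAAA
Neat1: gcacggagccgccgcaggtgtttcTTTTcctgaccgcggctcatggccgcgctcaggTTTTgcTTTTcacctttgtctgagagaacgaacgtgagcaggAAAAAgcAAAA
Both stretches end in an A-rich run encoded in the genome. Whether poly(A) selection or ribosomal RNA depletion came before the random-primed cDNA synthesis is not given in the sources used here.

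The windows below run from 45 bases before to 30 bases from the annotated start of 6 of the 7 host genes, taken from RefSeq on GRCm38.p6. They are shown to compare the start features of the host genes that changed with those that did not pass the test. Capitals mark TATA, searched on the gene's strand 45 to 15 bases before the start, and a C within 5 bases of the start followed by at least 4 C or T.
Gas5, chr1:161035121-161035195, + strand: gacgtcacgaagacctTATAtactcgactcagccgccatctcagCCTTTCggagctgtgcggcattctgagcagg
Snhg8, chr3:123508307-123508381, - strand: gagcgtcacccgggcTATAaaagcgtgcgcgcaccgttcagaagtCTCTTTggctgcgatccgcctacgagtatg
Snhg12, chr4:132308633-132308707, + strand: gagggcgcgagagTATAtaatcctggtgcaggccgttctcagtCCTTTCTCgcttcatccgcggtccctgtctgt
Snhg1, chr19:8723442-8723516, + strand: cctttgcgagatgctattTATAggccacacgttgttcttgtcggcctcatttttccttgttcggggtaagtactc
Snhg5, chr9:88522868-88522942, - strand: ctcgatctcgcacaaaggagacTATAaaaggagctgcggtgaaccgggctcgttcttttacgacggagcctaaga
Snhg15, chr11:6528731-6528805, - strand: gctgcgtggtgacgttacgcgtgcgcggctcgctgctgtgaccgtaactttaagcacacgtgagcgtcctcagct
By this rule Gas5, at its downstream start, Snhg8 and Snhg12 held both features, Snhg1 and Snhg5 held TATA alone, and Snhg15 held neither. In Snhg1 and Snhg5 runs of C and T also lie further downstream, which the rule does not mark. The features did not separate Gas5 from Snhg8 and Snhg12, or Snhg5 from Snhg1, which did not pass the test. Over 32851 promoters of the same length, 17.08% held the pyrimidine run, 6.72% held TATA and 1.11% held both. A match is only a match of letters, and Gas5 has a second annotated start at which neither was found.

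The libraries were near equal in depth, from 22393893 to 22856792 estimated counts, and the 9 genes together took 0.019 to 0.026% of them. All 8 macrophage markers were above 10 counts in every library, with a summed level of 5170 to 6240 cpm (counts scaled to a common library size). The lowest of the 8 was Mrc1, with only 23 to 58 counts. Epcam, Krt18 and Cdh1 of epithelial cells were at 0. Markers of T cells, B cells, fibroblasts and neutrophils summed to at most 2.51 cpm per cell type, and of these Pdgfra (30 to 55 counts) and S100a8 (35 to 48 counts) were above 10 counts in every library. Mitochondrially encoded genes took 5.47 to 5.89% of the counts in CTRL and 6.12 to 6.78% in the 6 treated libraries. The 3 libraries numbered 3 stood apart from the others of their own group, with a chi-square per degree of freedom of 12.2 to 15.4 against 3.41 to 5.10 between the libraries numbered 1 and 2. Values without those 3 libraries are therefore given below.

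The genes lie on 6 chromosomes of GRCm38. Malat1 (chromosome 19, 5795690 to 5802672, minus strand) and Neat1 (chromosome 19, 5824708 to 5845478, minus strand) are near neighbours, and Snhg1 (8723475 to 8726443, plus strand) lies on the same chromosome. Gas5 (161034422 to 161038539, plus strand) and Snhg6 (9941959 to 9944118, minus strand) are on chromosome 1. Snhg8 is on chromosome 3 (123507552 to 123508404, minus strand) and Snhg12 on chromosome 4 (132308623 to 132311024, plus strand). Snhg5 is on chromosome 9 (88521050 to 88522929, minus strand) and Snhg15 on chromosome 11 (6525591 to 6528760, minus strand).

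In untreated cells the level per kilobase of annotated exon was highest for Gas5, at 14.2 ± 1.59 cpm per kb (mean ± SD, n = 3), and its libraries overlapped those of Snhg8, which ran from 11.3 to 13.1 cpm per kb. Snhg1 came next at 8.62 ± 0.561 cpm per kb, above Malat1 at 7.47 ± 0.440 cpm per kb without overlap. Malat1, Snhg5, Snhg6 and Snhg15 formed a series from 7.47 to 5.18 cpm per kb in which each gene's libraries overlapped those of the gene before it. Snhg12, at 3.55 cpm per kb, and Neat1, at 0.746 cpm per kb, stood below the rest without overlap. The length is that of all annotated exons merged, which is longer than any one spliced RNA of a gene with many transcripts such as Gas5, and for Neat1 it is the 20771 bases of the long isoform although a 3004-base isoform shares its start. In VLDLsep Malat1 reached 14.6 ± 1.09 cpm per kb, second to Gas5 at 17.0 ± 0.330 cpm per kb. The Malat1 libraries overlapped those of Snhg8 (9.85 to 14.7 cpm per kb). In CHYLsep Malat1 stood at 13.3 ± 1.86 cpm per kb, overlapping Snhg8, which came just above it at 13.6 ± 0.665 cpm per kb. Snhg5 stood below Snhg6 without overlap in both particle groups, unlike in CTRL. Their levels were 5.51 and 6.12 cpm per kb in VLDLsep and 5.58 and 6.29 cpm per kb in CHYLsep.

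**Figure D1:**
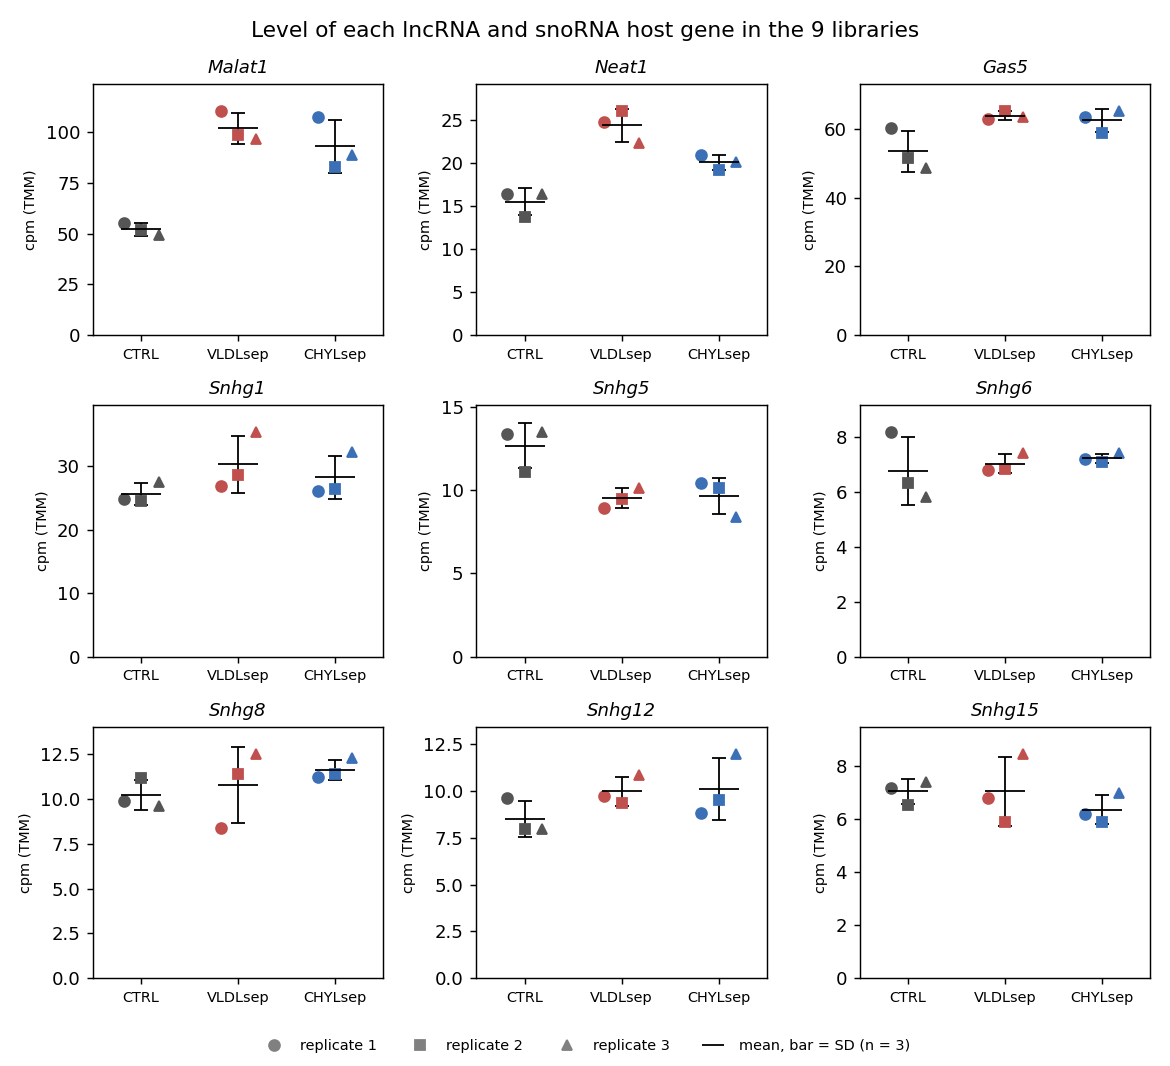
Level of each of the 9 genes in cpm after TMM scaling (y axis, from 0) in CTRL, VLDLsep and CHYLsep (x axis); symbols are the 3 replicates, the horizontal mark is the mean and the bar its SD (n = 3). Malat1 lies between 49.3 and 55.4 cpm in CTRL and between 82.9 and 110.8 cpm in the 6 treated libraries, and Snhg5 lies lower in each treated library than in each CTRL library.

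Exposure to VLDLsep raised both nuclear lncRNAs and 1 host gene, Gas5, and lowered 1 host gene, Snhg5. The other 5 host genes did not pass the test. With 4 of 9 genes called, the share has to be read against the 35.6% of all 12637 tested genes that were called in this comparison, 17.8% higher and 17.9% lower. For these 4 genes no VLDLsep value fell among the CTRL values, which held for 47.4% of all genes, 23.7% in each direction. The median log2 fold change of the 7 host genes was 0.068, against -3e-04 over all genes tested.

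Malat1 measured 55.4, 51.8 and 49.3 cpm in CTRL replicates 1 to 3, and 110.8, 99.0 and 96.6 cpm in VLDLsep replicates 1 to 3. Each treated library was far above each untreated one. The group mean was 52.2 ± 3.07 cpm untreated and 102.1 ± 7.61 cpm treated (SD, n = 3). On the log2 scale the fitted difference was 0.97 (SE 0.097, 95% CI 0.75 to 1.18, limma with Benjamini-Hochberg adjusted p = 3.4e-05), or 1.96-fold. That fold change was at the 97th percentile of all genes tested. Without the libraries numbered 3 it was 0.97, and it was called in all 19 alternative settings.

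Neat1 measured 16.4, 13.7 and 16.4 cpm in CTRL and 24.7, 26.1 and 22.3 cpm in VLDLsep, with no overlap between the groups. The log2 fold change was 0.66 (SE 0.092, 95% CI 0.45 to 0.86, limma adjusted p = 0.00031). It was 0.76 without the libraries numbered 3 and was called in all 19 settings. The count does not separate the short isoform from the long one on which paraspeckles depend.

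Gas5, named for its build-up in growth-arrested cells and host to 10 annotated snoRNAs, measured 60.2, 51.6 and 48.7 cpm in CTRL and 62.9, 65.3 and 63.5 cpm in VLDLsep. The groups did not overlap, but CTRL replicate 1 came close to the treated libraries. The log2 fold change was 0.26 (SE 0.076, 95% CI 0.093 to 0.43, limma adjusted p = 0.021), and 0.20 without the libraries numbered 3 (limma adjusted p = 0.032). The call ended when counts were scaled by library size alone (0.17, limma adjusted p = 0.13) and when CTRL replicate 2, CTRL replicate 3 or VLDLsep replicate 2 was left out, with adjusted p up to 0.073.

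Snhg5, host of the box C/D snoRNAs Snord50a and Snord50b, measured 13.4, 11.1 and 13.5 cpm in CTRL and 8.94, 9.48 and 10.2 cpm in VLDLsep. It was the 1 gene of the 9 whose treated libraries all lay below the untreated ones. The log2 fold change was -0.41 (SE 0.115, 95% CI -0.66 to -0.15, limma adjusted p = 0.018), and -0.41 without the libraries numbered 3. Leaving out CTRL replicate 1, CTRL replicate 3, VLDLsep replicate 1 or VLDLsep replicate 2 ended the call, with adjusted p up to 0.067, while the log2 fold change stayed between -0.50 and -0.36.

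Snhg1, which hosts 8 annotated snoRNAs, measured 24.8, 24.5 and 27.5 cpm in CTRL and 26.8, 28.7 and 35.4 cpm in VLDLsep. The groups overlapped, and the library numbered 3 was the highest of its group in all 3 groups. The log2 fold change was 0.23 (95% CI -0.018 to 0.49, limma adjusted p = 0.14). With the replicate number as a block it passed the test at 0.24 (limma adjusted p = 0.0056). The labels do not say whether the numbers mark pairs, and the correlations between libraries do not settle it.

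Snhg12, host of 5 annotated snoRNAs, ranged from 7.96 to 9.63 cpm in CTRL and from 9.34 to 10.9 cpm in VLDLsep, and its log2 fold change was 0.23 (95% CI -0.066 to 0.52, limma adjusted p = 0.21). Snhg6 and Snhg15, each with 1 annotated snoRNA, had intervals of -0.22 to 0.35 and -0.32 to 0.29 around log2 fold changes of 0.068 and -0.014. Snhg8, host of Snora24, had an interval of -0.25 to 0.36 around 0.058. Each of these 3 intervals covers changes of either sign, so at this depth and spread the direction in Snhg6, Snhg15 and Snhg8 was not settled. The small positive values of Snhg6 and Snhg8 became -0.024 and -0.034 when counts were scaled by library size alone.

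**Figure D2:**
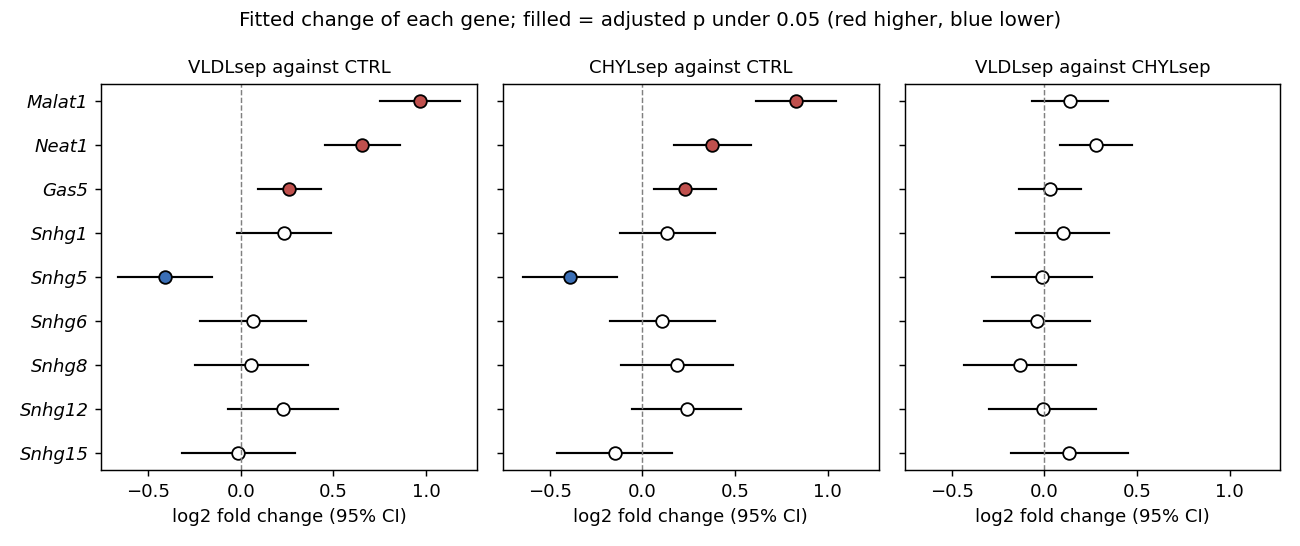
Fitted log2 fold change (x axis) of each gene (y axis) in the 3 comparisons; points are limma estimates, lines their 95% confidence intervals, and filled points have an adjusted p under 0.05 (red higher, blue lower). Malat1, Neat1 and Gas5 are called higher and Snhg5 lower against CTRL in both particle groups, and no gene is called between the particle groups.

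Against CTRL, CHYLsep raised Malat1, Neat1 and Gas5 and lowered Snhg5, in a comparison that shares its CTRL libraries with the one above. Of all tested genes 25.7% were called, 12.7% higher and 13% lower. All CHYLsep values lay above all CTRL values for Malat1, Neat1 and Snhg8, 3 of the 9, and below them for Snhg5, against 20.8% and 20.9% of all genes. The median log2 fold change of the 7 host genes was 0.13, against 0.0013 over all genes.

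Malat1 measured 107.8, 82.9 and 88.9 cpm in CHYLsep replicates 1 to 3, all above the highest CTRL library at 55.4 cpm. The log2 fold change was 0.83 (SE 0.098, limma adjusted p = 0.00016), and it was called in all 19 settings. Neat1 measured 20.9, 19.2 and 20.1 cpm in CHYLsep, also above each CTRL library, with a log2 fold change of 0.38 (SE 0.095, limma adjusted p = 0.014). The Neat1 call ended without CTRL replicate 2 (0.29, limma adjusted p = 0.059) or without CHYLsep replicate 1 (0.34, limma adjusted p = 0.056).

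The 2 host gene calls rested on less. Gas5 measured 63.4, 58.8 and 65.4 cpm in CHYLsep and overlapped CTRL, whose highest library was 60.2 cpm. Its log2 fold change was 0.23 (SE 0.076, limma adjusted p = 0.0496), and it was called in only 5 of 19 alternative settings. Without the libraries numbered 3 the log2 fold change of Gas5 was 0.13 (limma adjusted p = 0.18).

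Snhg5 measured 10.4, 10.1 and 8.39 cpm in CHYLsep, below the lowest CTRL library at 11.1 cpm. Its log2 fold change was -0.39 (SE 0.114, limma adjusted p = 0.028). Without the libraries numbered 3 it was -0.25 (limma adjusted p = 0.10), and the call also ended without CTRL replicate 1, CTRL replicate 3, CHYLsep replicate 2 or CHYLsep replicate 3.

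Among the rest, Snhg8 measured 11.2, 11.4 and 12.3 cpm in CHYLsep against 9.88, 11.2 and 9.60 cpm in CTRL. The groups only just failed to overlap, a pattern that 41.7% of all tested genes showed, and the log2 fold change of 0.19 did not pass the test (95% CI -0.11 to 0.49, limma adjusted p = 0.35). Snhg1, Snhg6, Snhg12 and Snhg15 had log2 fold changes of 0.13, 0.11, 0.24 and -0.15, with limma adjusted p from 0.22 to 0.59.

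Between the 2 particle sizes no gene of the 9 was called, and none of the 12637 genes tested was (0%). Limma left 813 genes, 6.43%, at an unadjusted p under 0.05, edgeR called 0 genes and left 812 at that level, and DESeq2 called 24. Neat1 was the 1 gene of the 9 whose libraries did not overlap, a pattern seen in 11.3% of all genes, 5.66% higher and 5.63% lower, and its level was higher in VLDLsep. Its log2 fold change was 0.28 (95% CI 0.083 to 0.47, limma adjusted p = 0.61). Without the libraries numbered 3, 257 of 12386 genes were called but none of the 9, and Neat1 was at 0.34 (limma adjusted p = 0.065). For Malat1 the difference was 0.14 (95% CI -0.068 to 0.34, limma adjusted p = 0.87). The 7 host genes lay between -0.13 for Snhg8 and 0.14 for Snhg15.

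The snoRNAs themselves were not seen. The 7 host genes hold 28 genes annotated as snoRNA, 60 to 137 bases long, and all 28 were at 0 in every library. Over all genes counted, 111 of 1364 snoRNA genes had a count in any library and 1 was tested. The values above therefore describe the spliced or unspliced host RNA and say nothing of snoRNA levels. As examples of what the hosts carry, 1 box C/D snoRNA each of Gas5, Snhg5 and Snhg6 is shown, with the C box TGATGA and the D box CTGA in capitals.
Snord47, in Gas5: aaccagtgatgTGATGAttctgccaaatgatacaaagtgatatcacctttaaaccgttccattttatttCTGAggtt
Snord50a, in Snhg5: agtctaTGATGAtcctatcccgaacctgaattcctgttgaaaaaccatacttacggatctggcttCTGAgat
Snord87, in Snhg6: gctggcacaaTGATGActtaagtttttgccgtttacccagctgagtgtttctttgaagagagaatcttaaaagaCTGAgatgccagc
Each is shorter than the 150-base reads of the run, and why the 28 were at 0 was not tested.

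Some of the genes overlap or adjoin another gene. Gm37376, an unclassified gene on the opposite strand, overlaps Malat1, and since it is not given whether the libraries kept strand, reads of the 2 cannot be told apart with certainty. It measured 1.95, 1.22 and 1.70 cpm in CTRL, 3.95, 3.80 and 4.02 cpm in VLDLsep and 3.90, 3.42 and 4.45 cpm in CHYLsep. Every treated library of Gm37376 was above every untreated one, with a log2 fold change of 1.29 in VLDLsep (limma adjusted p = 0.00045) and 1.28 in CHYLsep (limma adjusted p = 0.00077).

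Slc3a2, which encodes the heavy chain of amino acid transporters, starts 106 bases from Snhg1 on the other strand. Slc3a2 rose from 273.2 ± 7.98 cpm in CTRL to 463.8 ± 67.7 cpm in VLDLsep and 398.2 ± 71.0 cpm in CHYLsep (SD, n = 3), log2 fold changes of 0.75 (limma adjusted p = 0.00077) and 0.53 (limma adjusted p = 0.0090). In its neighbour Snhg1 the values were 0.23 and 0.13 and neither passed the test. As in Snhg1, Slc3a2 was highest in the library numbered 3 of each group. Zbtb37, a zinc finger gene that overlaps Gas5 on the opposite strand, had log2 fold changes of -0.033 and -0.083 and was not called. Reads of Gas5 and Zbtb37 likewise cannot be told apart with certainty where the genes overlap. Myo1g, a myosin gene near Snhg15, had -0.25 (limma adjusted p = 0.059) and -0.22 (limma adjusted p = 0.11).

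**Figure D3:**
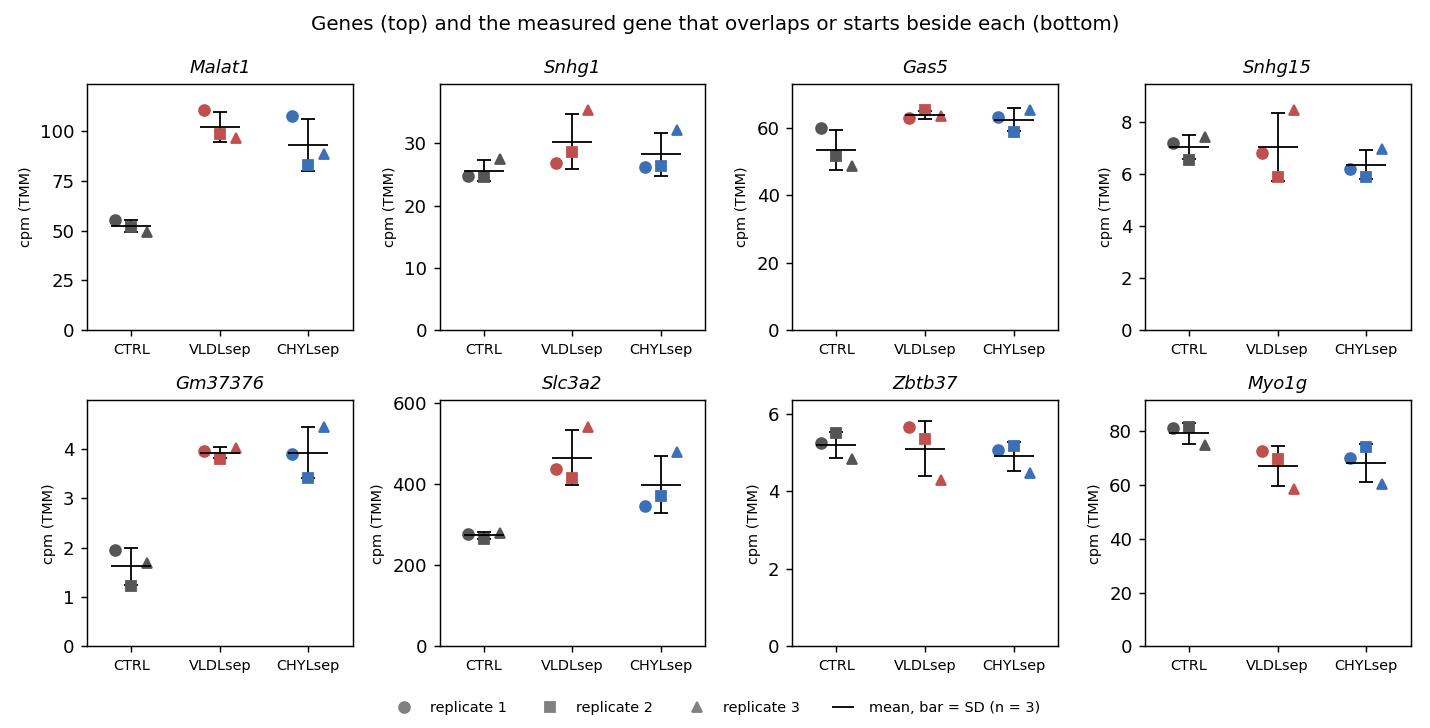
Level in cpm after TMM scaling (y axes, from 0) of Malat1, Snhg1, Gas5 and Snhg15 (top) and of the measured gene that overlaps or starts close to each, Gm37376, Slc3a2, Zbtb37 and Myo1g (bottom), in the 3 groups; symbols are replicates, marks means and bars SD (n = 3). Gm37376 lies between 1.22 and 1.95 cpm in CTRL and between 3.42 and 4.45 cpm in the treated libraries, while every treated library of Slc3a2 lies above every CTRL library and those of Snhg1 overlap CTRL.

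Genes of the same families and of the bodies and pathways these RNAs belong to were taken as lists. Their counts are to be read against all genes tested, of which 17.8% were called higher and 17.9% lower in VLDLsep and 12.7% and 13% in CHYLsep. With the replicate number as a block, calls over all genes in VLDLsep went from 4500 to 6058, and the block counts below are to be read against that. The first list held 10 other snoRNA host genes that were tested, among them the protein-coding Taf1d. Of these 10, 1 rose in VLDLsep and none changed in CHYLsep, with medians of 0.13 in both. With the replicate number as a block 2 rose in VLDLsep. The 1 was Snhg14, at 2.22 ± 0.292 cpm in CTRL and 3.50 ± 0.912 cpm in VLDLsep (log2 fold change 0.63, limma adjusted p = 0.039), which was not called under library size scaling (limma adjusted p = 0.074). The other 9 did not pass the test in VLDLsep. Their log2 fold changes were 0.13 for Taf1d, 0.14 for Zfas1, 0.14 for Snhg3, 0.25 for Snhg17, 0.16 for Snhg18, 0.053 for Snhg20, 0.031 for Snhg10, -0.16 for Epb41l4aos and -0.18 for Dancr.

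Of 25 protein-coding genes that carry snoRNAs in their introns, 2 rose and none fell in each particle group, with 6 rising in VLDLsep when the replicate number was a block. Hspa8, the constitutive HSP70 chaperone, went from 1626 ± 105.5 to 2830 ± 121.8 cpm in VLDLsep (log2 fold change 0.80, limma adjusted p = 8e-06). Tnpo2, a nuclear import receptor, had a log2 fold change of 0.33 (limma adjusted p = 0.0035). The list's medians were 0.086 in VLDLsep and 0.090 in CHYLsep. Of 18 genes for proteins that assemble or make up snoRNA particles, 2 rose and 2 fell in VLDLsep. Naf1, an assembly factor of box H/ACA particles, rose by 0.40 and Dkc1, the pseudouridine synthase of the same particles, fell by 0.40 on the log2 scale (limma adjusted p = 0.00055 and 0.00012). Rpap3, a co-chaperone of particle assembly, rose by 0.23 and Pih1d1, its partner, fell by 0.25 on the log2 scale (limma adjusted p = 0.029 and 0.031). In CHYLsep 1 of the 18 rose and 1 fell.

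NMD factors, which remove host RNAs engaged by ribosomes, were called higher more often than lower, but most were not called. Of 16 tested, 5 rose and 1 fell in VLDLsep and 4 rose and 1 fell in CHYLsep, with medians of 0.14 and 0.11, and under the block 8 rose and 3 fell in VLDLsep. Smg1, the kinase that phosphorylates UPF1, rose from 110.8 ± 16.5 to 186.9 ± 3.99 cpm in VLDLsep (log2 fold change 0.76, limma adjusted p = 0.0001). Upf2 rose by 0.37 and Eif4a3, of the exon junction complex, fell by 0.22 on the log2 scale. With library size scaling 3 were higher and 3 lower in VLDLsep, and 1 was higher and 2 were lower in CHYLsep. The balance between rises and falls therefore depended on the scaling. Over all genes that scaling lowered the median log2 fold change to -0.0935 in VLDLsep and -0.0788 in CHYLsep. Of all called genes, 31.3% and 29.8% were then higher.

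Among genes for proteins that share bodies with Neat1 and Malat1, more RNAs were called lower than higher, but most were not called. A link to the rise of the 2 lncRNAs was not tested. Of 19 paraspeckle protein genes, none rose and 5 fell in VLDLsep, and none rose and 2 fell in CHYLsep, with medians of -0.10 and -0.070. The other 14 and 17 were not called, and over all genes 17.9% and 13% were called lower. Rbm12 fell by 0.38 and Pspc1, a core paraspeckle protein, fell by 0.46 on the log2 scale (limma adjusted p = 0.0019 and 0.012). With the block 8 of the 19 fell in VLDLsep.

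Of 22 nuclear speckle genes, 3 rose and 7 fell in VLDLsep, and 2 rose and 5 fell in CHYLsep, with medians of -0.19 and -0.13. The 3 that rose were the kinases Clk1, Clk4 and Clk3, which phosphorylate SR splicing factors. Clk1 went from 79.8 ± 5.84 to 121.4 ± 7.11 cpm in VLDLsep (log2 fold change 0.61, limma adjusted p = 4.1e-05). Those that fell included the SR splicing factors Srsf7 and Srsf4, by 0.49 and 0.43 on the log2 scale (limma adjusted p = 0.00029 and 0.00042). With the block 5 rose and 14 fell in VLDLsep.

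**Figure D4:**
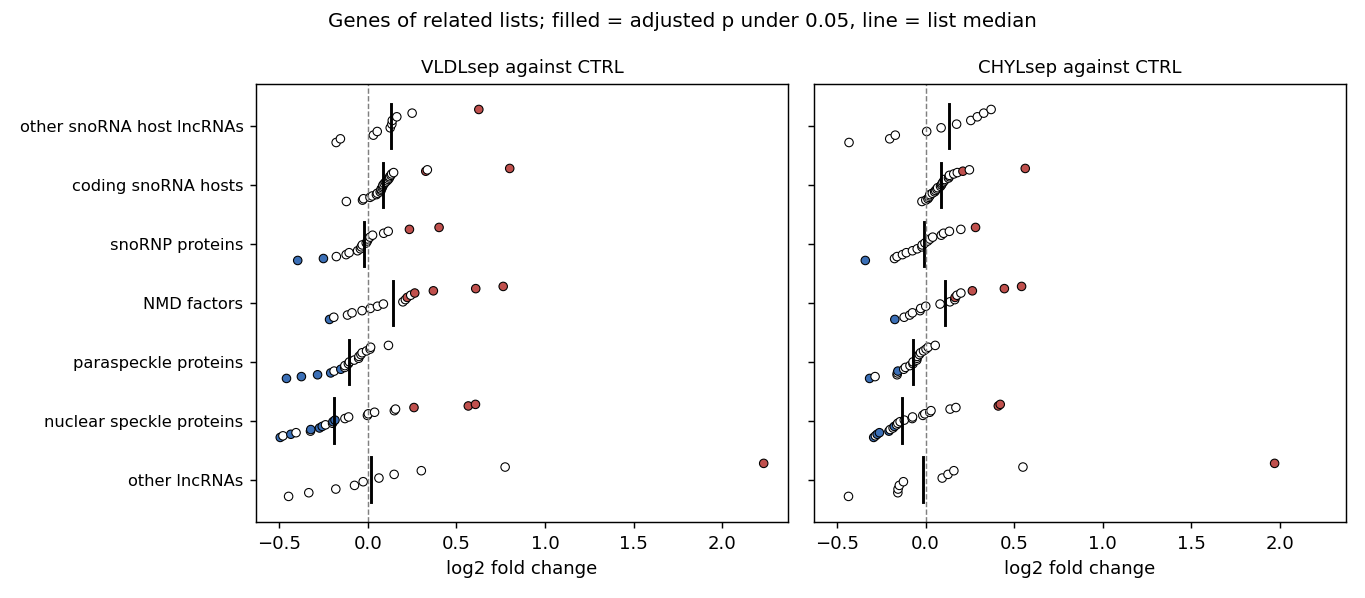
Log2 fold change against CTRL (x axis) of every tested gene in 7 related lists (y axis), for VLDLsep (left) and CHYLsep (right); filled points have a limma adjusted p under 0.05 (red higher, blue lower) and the vertical line is the list's median. Speckle and paraspeckle protein genes have medians below 0, at -0.19 and -0.10 in VLDLsep, and Mir22hg lies far to the right of the other lncRNAs. The row of other snoRNA host lncRNAs also holds Taf1d, a protein-coding gene.

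Malat1 and Neat1 were compared with 10 other lncRNAs that passed the filter, of 16 listed. Mir22hg, the host of the microRNA miR-22, was the 1 called, higher in both particle groups. It rose from 3.80 ± 0.917 cpm in CTRL to 18.2 ± 5.95 cpm in VLDLsep (log2 fold change 2.23, limma adjusted p = 0.0007) and 15.3 ± 5.53 cpm in CHYLsep (1.97, limma adjusted p = 0.0026). Tug1 measured 86.4 ± 7.42 and 90.0 ± 1.94 cpm in CTRL and VLDLsep, with a log2 fold change of 0.063 (95% CI -0.079 to 0.20). Dleu2 had -0.33 (limma adjusted p = 0.052). The remaining lncRNAs, Firre, Trp53cor1, Ftx, Mir17hg, Pvt1, Jpx and Kcnq1ot1, did not pass the test.

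Of the 13 mitochondrially encoded protein genes, 9 rose and none fell in VLDLsep and 10 rose and none fell in CHYLsep, with medians of 0.24 and 0.26, so that the share of mitochondrial RNA moved with the groups as Malat1 and Neat1 did. mt-Atp6, a subunit of ATP synthase, and mt-Co1, a subunit of cytochrome c oxidase, rose by 0.35 and 0.37 on the log2 scale in VLDLsep (limma adjusted p = 0.00054 and 0.00079). The part of this shift in the values above was not tested. In bulk RNA of a culture, a change in how many cells express a gene cannot be told apart from a change per cell.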

How the data were processed

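The deposited table holds estimated counts per gene, made by the authors with Salmon 0.14.1 on GENCODE M22 transcripts of GRCm38.p6, summed per gene with tximport. Of values above 10, 58.3% were whole numbers (tolerance 1e-06). The reads came from 150-base paired-end runs of random-primed cDNA. Strand and poly(A) selection are not given in the sources used here.

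Symbols were matched for 54346 of 54432 identifiers. Genes with more than 10 estimated counts in at least 3 of 9 libraries were kept, 12637 in all; 10 counts is about 0.442 cpm. The count test was limma 3.58.1 with voom weights on log2 cpm after TMM scaling (edgeR 4.0.16), in R 4.3.3. It was fitted to all 9 libraries with Benjamini-Hochberg adjustment, and a gene was called at an adjusted p under 0.05. The study used limma with TMM and weights on counts that it first scaled for transcript length. No length scaling was applied here to the deposited counts, so a shift between isoforms of unlike length can also move a count. Group means are TMM-scaled cpm. The code was tested on simulated data. The precision is limited by 3 libraries a group.

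Alternatives were edgeR's quasi-likelihood test and DESeq2 1.42.0 on rounded counts, library size or upper-quartile scaling, limma-trend (prior count 2), no filter, a filter of more than 50 counts, a replicate block, only the groups compared, no libraries numbered 3, and each library left out. Deviations of same-numbered libraries from their group means correlated at 0.138, 0.132 and 0.293 between VLDLsep and CTRL, each over 0.1. The other comparisons did not meet this. VLDLsep replicate 2 and CTRL replicate 1, which differ in number, also reached 0.116. These values therefore do not establish that the numbers are pairs, and the labels do not say what the numbers mark. Libraries numbered 3 correlated at 0.293, 0.338 and 0.357 across groups, and at -0.254 to -0.121 with those numbered 1 or 2. Their deviation was thus shared between groups, and the main fit does not model it.

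The genes and lists were chosen with earlier results of these data known. Besides the 9 genes, the text names the 2 genes with the smallest adjusted p in each direction of a list. It also names all tested genes of 2 lists. Genes that overlap a member or start within 5000 bases of its ends are named, except those with at most 2.73 counts. So are the 2 genes most like each member. Clk3 was named after its value was seen. Coordinates are from GENCODE M21 on GRCm38, transcript sequences from the same release, and start windows from RefSeq, which held 7 of the 9 genes.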

Additional observations from a re-analysis of the deposited data

How the results depend on the processing

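The precision of every value is limited by 3 libraries a group. The calls of Malat1 in both particle groups and of Neat1 in VLDLsep held in all 19 alternatives; Gas5 in VLDLsep was called in 15, Snhg5 in VLDLsep in 15, Neat1 in CHYLsep in 17, Snhg5 in CHYLsep in 13 and Gas5 in CHYLsep in 5. The causes of lost calls were not tested.

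Leaving out 1 library at a time, 2 to 3 of the 9 genes were called higher and 0 to 1 lower in VLDLsep, and 1 to 3 higher and 0 to 1 lower in CHYLsep; the 1 higher in CHYLsep came without CTRL replicate 2 or CHYLsep replicate 1. Genes called lower in CHYLsep were 0 with no filter and 0 without the libraries numbered 3.

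Signs turned only in genes that were not called. Against CTRL in VLDLsep, Snhg6 was -0.0235 with library size scaling and -0.0755 without the libraries numbered 3, Snhg8 was -0.034 and -0.1027, and Snhg15 was 0.0002 with edgeR and 0.0014 with DESeq2. In CHYLsep against CTRL, Snhg6 was -0.0124 without the libraries numbered 3, and between the particle groups Snhg12 was 0.0558. With 1 library left out, the VLDLsep values ran from -0.0355 to 0.2107 for Snhg6, -0.0599 to 0.2255 for Snhg8 and -0.1527 to 0.1095 for Snhg15. Between the particle groups they ran from -0.0103 to 0.0659 for Gas5, -0.017 to 0.197 for Snhg1, -0.1101 to 0.0467 for Snhg5, -0.2467 to 0.0388 for Snhg8, -0.1007 to 0.119 for Snhg12 and -0.0037 to 0.2586 for Snhg15.

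With the replicate block, 4 of the 9 genes were called higher in VLDLsep and Snhg1 was the one gained; no other call among the 9 changed. Same-numbered libraries correlated at 0.0684 to 0.338 between CHYLsep and CTRL and 0.0286 to 0.357 between the particle groups. Over all genes the block gave 6058 calls in VLDLsep, 4949 in CHYLsep and 147 between particle groups. In CHYLsep it raised the coding snoRNA hosts called higher from 2 to 6 and the speckle genes called lower from 5 to 11. With library size scaling, 9 paraspeckle genes fell in VLDLsep and 7 in CHYLsep, 5 snoRNA particle genes fell in VLDLsep, 5 mitochondrially encoded genes rose in VLDLsep, and of all called genes 31.3% were higher in VLDLsep and 29.8% in CHYLsep. Library size scaling called 4819 of 12637 genes in VLDLsep and 3582 in CHYLsep. Without the libraries numbered 3, 12 of 22 speckle genes fell and 6 of 25 coding snoRNA hosts rose in VLDLsep. These 2 counts are to be read against 5380 of 12386 genes called in that setting, of which 50.7% were higher.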

Other observations

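Among 9843 genes with a mean of at least 100 estimated counts, those whose centred log2 cpm followed a member most closely over the 9 libraries were listed, as a description in which all genes share the same libraries. For Malat1 these were Itpr2, a calcium release channel of the endoplasmic reticulum, and Ankrd12, with root mean square differences of 0.0757 and 0.0834 against a spread of 0.441 for Malat1 itself. For Neat1 they were the pseudogene Vamp7-ps and Ulk1, the kinase that starts autophagy, at 0.094 and 0.10 against 0.284. Gm45902 and Dpy19l1 followed Snhg5, at 0.0509 and 0.0835 against 0.221. Naa30 and Ciao2b followed Gas5, and Fam136a and Zfp764 followed Snhg1. The nearest were Sh3rf1 and AI413582 for Snhg6, Sub1 and Mttp for Snhg8, Rnf215 and Macrod1 for Snhg12, and Plagl2 and Tsr2 for Snhg15.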
